A study of Mus musculus with 25 samples.

Results

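The 47 genes described here encode the machinery that copies DNA: the proteins that mark and license origins, the helicase and its activators, the polymerases with their clamp and clamp loader, the enzymes that supply nucleotides, and 3 factors that clear uracil or restore methylation behind the fork. They were chosen by name, and all 47 had a row among the 37117 gene symbols of the deposited count table. RNA was measured in 25 libraries of sorted mouse liver cells labelled as hepatocytes, 500000 cells per library, in 7 groups. ApoYap ctrl (n = 4) and ApoYap Dox (n = 3) carried the transgenes ApoE-rtTA and TRE-hYAP, in which a doxycycline-dependent activator under ApoE control switches on human YAP. ApoYap Dox had taken doxycycline for 1 week, at 0.2 mg/ml in drinking water with 2.5% sucrose, and ApoYap ctrl was untreated. Lats1/2 flox ctrl (n = 4) and Lats1/2 KO (n = 3) carried floxed alleles of Lats1 and Lats2, on both chromosomes. In Lats1/2 KO these were recombined by an AAV8 virus that expresses Cre from the hepatocyte promoter TBG, 1 week before sampling, and the flox controls were untreated and received no virus. The other groups were C57BL/6 mice: BL/6 ctrl (n = 4, untreated), BL/6 Dox (n = 4, the same doxycycline and sucrose water for 1 week) and BL/6 AAV-Cre (n = 3, the same virus, sampled after 24 hours and not after 1 week). The labels give no age, no sorting gate and no batch, and do not say whether each library came from a separate animal, so p-values measure the spread between these libraries only.

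Replication begins with licensing. The origin recognition complex binds DNA, CDC6 and CDT1 load the ring of MCM2 to MCM7 onto it, and CDC45, the GINS complex and MCM10 then turn that ring into a moving helicase. Polymerase alpha with primase starts each strand, polymerases delta and epsilon extend it on the PCNA clamp, and ligase 1 seals the fragments of the lagging strand. Most hepatocytes of an adult liver are out of the cell cycle, and many genes of this machinery are known targets of E2F factors, which act as cells leave that state. YAP is the transcriptional coactivator of the Hippo pathway, and the kinases LATS1 and LATS2 hold it inactive.

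Promoter windows of RefSeq genes (GRCm38.p6, from 250 bases before to 50 after each annotated start) were found for 40 of the 47 genes, in 51 windows. E2F-type motifs of 8 bases were searched on both strands: TTTCCCGC, TTTGGCGC and TTCCCGCC, of which the first and the third overlap wherever TTTCCCGCC occurs. TTTCCCGC was in a window of 8 of the 40 genes (20.0%), against 1.24% of 27025 genes with a window of the same length. TTTGGCGC was in 7 (17.5%, against 0.58%) and TTCCCGCC in 8 (20.0%, against 2.52%). At least 1 of the 3 was in 19 genes (47.5%, against 3.69%). CCAAT was in 24 (60.0%, against 41.06%), and the E box CACGTG in 7 (17.5%, against 8.09%). Of the 30 genes with a window whose RNA was higher under both Yap induction and the Lats1/2 knockout, 16 held an E2F-type motif, and of the other 10 genes with a window 3 did. The 30 include Cdc6, Cdc45, Pole2 and Uhrf1, which had enough counts to be tested only through ApoYap Dox and Lats1/2 KO. Of these, Cdc6, Pole2 and Uhrf1 held a motif. The other 10 include Orc1 and Pola2, called higher under Yap induction, and Fen1, which was not tested. The split is therefore a description and was not tested. A match is a run of letters and not a measured binding site.

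The windows of 5 genes are shown because their RNA behaved differently or their motifs do. They were picked after the values were seen. Capitals mark E2F-type motifs and CCAAT in either orientation, and each window holds the 250 bases before and 50 after the start, written 5′ to 3′ on the gene's strand. Mcm3 (chr1:20820263-20820562, minus strand) holds all 3 E2F-type motifs, Mcm6 (chr1:128359656-128359955, minus strand) holds TTTGGCGC at more than 1 place, and Cdc6 (chr11:98907901-98908200, plus strand) holds TTTCCCGC in the reverse orientation. The RNA of these 3 rose under Yap induction and in the knockout. For Cdc6 a second annotation, GENCODE M21, starts the gene at 98907801, before the first base of this window. By that annotation the Cdc6 window lies inside the gene and holds no base before its start. Mcm10 (chr2:5012742-5013041, minus strand), whose counts fell, holds CCAAT boxes and none of the 3 E2F-type motifs in full. Its window ends in TTTGGCG, so a TTTGGCGC that crosses the edge could not be seen. Genes that rose can also lack these motifs: the windows of Lig1, Pcna, Mcm2, Tk1 and Rrm2 hold none of the 3. Orc3 (chr4:34614893-34615192, minus strand), whose RNA edgeR called in neither comparison after TMM scaling, holds TTTCCCGC.
Mcm3: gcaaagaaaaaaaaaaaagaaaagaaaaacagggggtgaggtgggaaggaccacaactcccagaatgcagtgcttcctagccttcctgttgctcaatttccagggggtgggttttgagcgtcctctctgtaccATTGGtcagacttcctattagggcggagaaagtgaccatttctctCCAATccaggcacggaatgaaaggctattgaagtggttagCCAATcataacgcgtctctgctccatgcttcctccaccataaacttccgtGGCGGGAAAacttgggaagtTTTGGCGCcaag
Mcm6: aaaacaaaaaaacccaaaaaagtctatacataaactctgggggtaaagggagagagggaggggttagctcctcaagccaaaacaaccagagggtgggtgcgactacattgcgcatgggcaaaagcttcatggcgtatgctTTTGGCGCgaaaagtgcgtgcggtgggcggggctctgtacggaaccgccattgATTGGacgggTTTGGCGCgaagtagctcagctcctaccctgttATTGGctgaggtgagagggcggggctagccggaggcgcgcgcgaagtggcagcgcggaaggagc
Cdc6: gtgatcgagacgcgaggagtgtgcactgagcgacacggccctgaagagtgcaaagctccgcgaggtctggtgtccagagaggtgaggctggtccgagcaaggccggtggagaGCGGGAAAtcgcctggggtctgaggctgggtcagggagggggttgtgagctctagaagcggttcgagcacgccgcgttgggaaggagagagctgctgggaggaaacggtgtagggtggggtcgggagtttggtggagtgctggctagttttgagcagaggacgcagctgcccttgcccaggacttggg
Mcm10: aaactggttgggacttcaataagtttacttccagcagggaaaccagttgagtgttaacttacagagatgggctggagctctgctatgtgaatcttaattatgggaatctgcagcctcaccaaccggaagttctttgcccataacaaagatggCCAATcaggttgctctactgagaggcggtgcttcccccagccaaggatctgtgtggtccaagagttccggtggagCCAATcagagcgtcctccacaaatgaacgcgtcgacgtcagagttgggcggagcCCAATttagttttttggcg
Orc3: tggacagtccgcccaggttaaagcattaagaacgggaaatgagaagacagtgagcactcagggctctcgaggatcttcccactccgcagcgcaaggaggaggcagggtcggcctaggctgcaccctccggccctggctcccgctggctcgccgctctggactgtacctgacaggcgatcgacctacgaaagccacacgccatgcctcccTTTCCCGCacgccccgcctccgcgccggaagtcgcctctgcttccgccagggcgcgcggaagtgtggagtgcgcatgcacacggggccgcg

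Library totals ranged from 8107539 to 16515330 counts, so that 1 count was worth 0.0361 to 0.141 CPM. CPM is the usual count scaled to library size, here with TMM, which sets libraries to a common level by their typical gene. The Yap target Ccn2 was at 1.62, 1.34, 2.6 and 1.2 in ApoYap ctrl against 182, 177 and 161 in ApoYap Dox, and at 1.19 to 1.32 in the flox controls against 62.5 to 149 in Lats1/2 KO. Changes below are log2 fold changes. In the knockout design Lats1 was at 13.9, 12.3, 13.0 and 14.9 CPM in the flox controls and 5.1, 4.79 and 2.97 in Lats1/2 KO, a change of -1.67 ± 0.23 (SE, adjusted p = 4.09e-06). Lats2 was at 13.1, 12.9, 13.7 and 13.0 in the flox controls and 7.7, 17.8 and 10.5 in Lats1/2 KO and did not pass the test (-0.13 ± 0.20 SE, adjusted p = 0.651), but the floxed exons are not named in the labels and a 3′ read outside them checks nothing. Mouse Yap1 fell in ApoYap Dox (-1.05 ± 0.12 SE, adjusted p = 2.34e-08), and whether reads of the human transgene count there is not given in the sources used here. Albumin, which defines hepatocytes, was at 40070.0 to 67310.0 CPM outside ApoYap Dox and Lats1/2 KO, at 21750.0 to 30650.0 in ApoYap Dox and at 35700.0 to 36540.0 in the knockout.

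RNA of other liver cells and of cycling cells moved with the treated groups. All 12 of 12 macrophage markers passed the test as higher under Yap induction and in the knockout. Their summed level, as CPM of the library total, was 82.76 to 199.4 in ApoYap ctrl and 11600 to 20240 in ApoYap Dox, and 75.81 to 241.0 in the flox controls and 782.4 to 2083 in Lats1/2 KO. Of 12 endothelial markers 11 were higher under Yap induction and 12 in the knockout, with sums of 69.48 to 167.5 against 1053 to 2014 and of 69.31 to 206.6 against 491.9 to 1306. Of 12 stellate cell and fibroblast markers 6 were higher under Yap induction and 11 in the knockout, with sums of 53.25 to 111.7 against 231.2 to 411.6 and of 62.69 to 72.93 against 240.3 to 813.6. Of 10 cholangiocyte markers 5 were tested: 2 were higher and 2 lower under Yap induction, and 3 were higher in the knockout. Their sums over all 10 were 221.3 to 255.4 against 357.0 to 507.7 and 203.9 to 274.6 against 241.1 to 574.8. All 9 cycling genes were higher in each comparison. Their sums were 17.04 to 32.54 in ApoYap ctrl, 501.8 to 838.3 in ApoYap Dox, 17.36 to 41.24 in the flox controls and 415.0 to 681.8 in Lats1/2 KO. The 8 neutrophil markers summed to 0.2566 to 1.525 in ApoYap ctrl against 22.11 to 59.74 in ApoYap Dox. Their sums were 0.2911 to 0.7364 in the flox controls against 1.272 to 5.557 in Lats1/2 KO. Of 4 neutrophil markers tested, 4 were higher under Yap induction and 2 in the knockout. The 10 lymphocyte markers summed to 0.06415 to 0.5084 against 2.432 to 5.378, and to 0 to 0.4852 against 0.5902 to 2.47. Ly6g and Trac were at 0 in each of these groups. Proliferating cells of any type carry replication RNA, and the part of these other cells in the results below was not tested. More cells of a type and more RNA per cell cannot be told apart in such bulk libraries.

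Most of the replication machinery was higher under Yap induction, ApoYap Dox against ApoYap ctrl, and in the Lats1/2 knockout, Lats1/2 KO against the flox controls. Of the 47 genes, 45 had enough counts to be tested. Under Yap induction 36 were higher and 1 was lower at an adjusted p under 0.05, against 35% of all 12970 genes tested called higher and 32.0% called lower. The median log2 fold change was 1.84 over the 45 and 0.068 over all genes tested. In the Lats1/2 knockout 34 were higher and 1 was lower, against backgrounds of 20.6% and 17.4%, and the median was 1.33 beside -0.028 over all genes. By edgeR the same 34 genes were called higher in both and 8 were called in neither. Orc1 and Pola2 were called under Yap induction and not in the knockout, where DESeq2 called Pola2 (adjusted p = 0.0319) and limma voom called Orc1 (0.03), and the difference between the comparisons passed the test for neither (edgeR, adjusted p = 0.931 for Orc1 and 0.0621 for Pola2). The gene called lower was Mcm10 each time. Of the 45, Orc1, Cdc6, Cdc45, Pole2, Rfc4 and Uhrf1 passed the low-count filter (0.936 CPM) only through ApoYap Dox and Lats1/2 KO libraries, so they could hardly have been tested unless they differed. Without these 6, 31 of 39 genes were called higher under Yap induction and 30 of 39 in the knockout, with medians of 1.80 and 1.17. All 3 ApoYap Dox libraries were above all 4 ApoYap ctrl libraries for 36 of the 47 genes and below them for 1, and the corresponding counts in the knockout were 35 and 1. The share of all genes tested that separate in this way is not given here, so these counts have no background beside them.

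**Figure D1:**
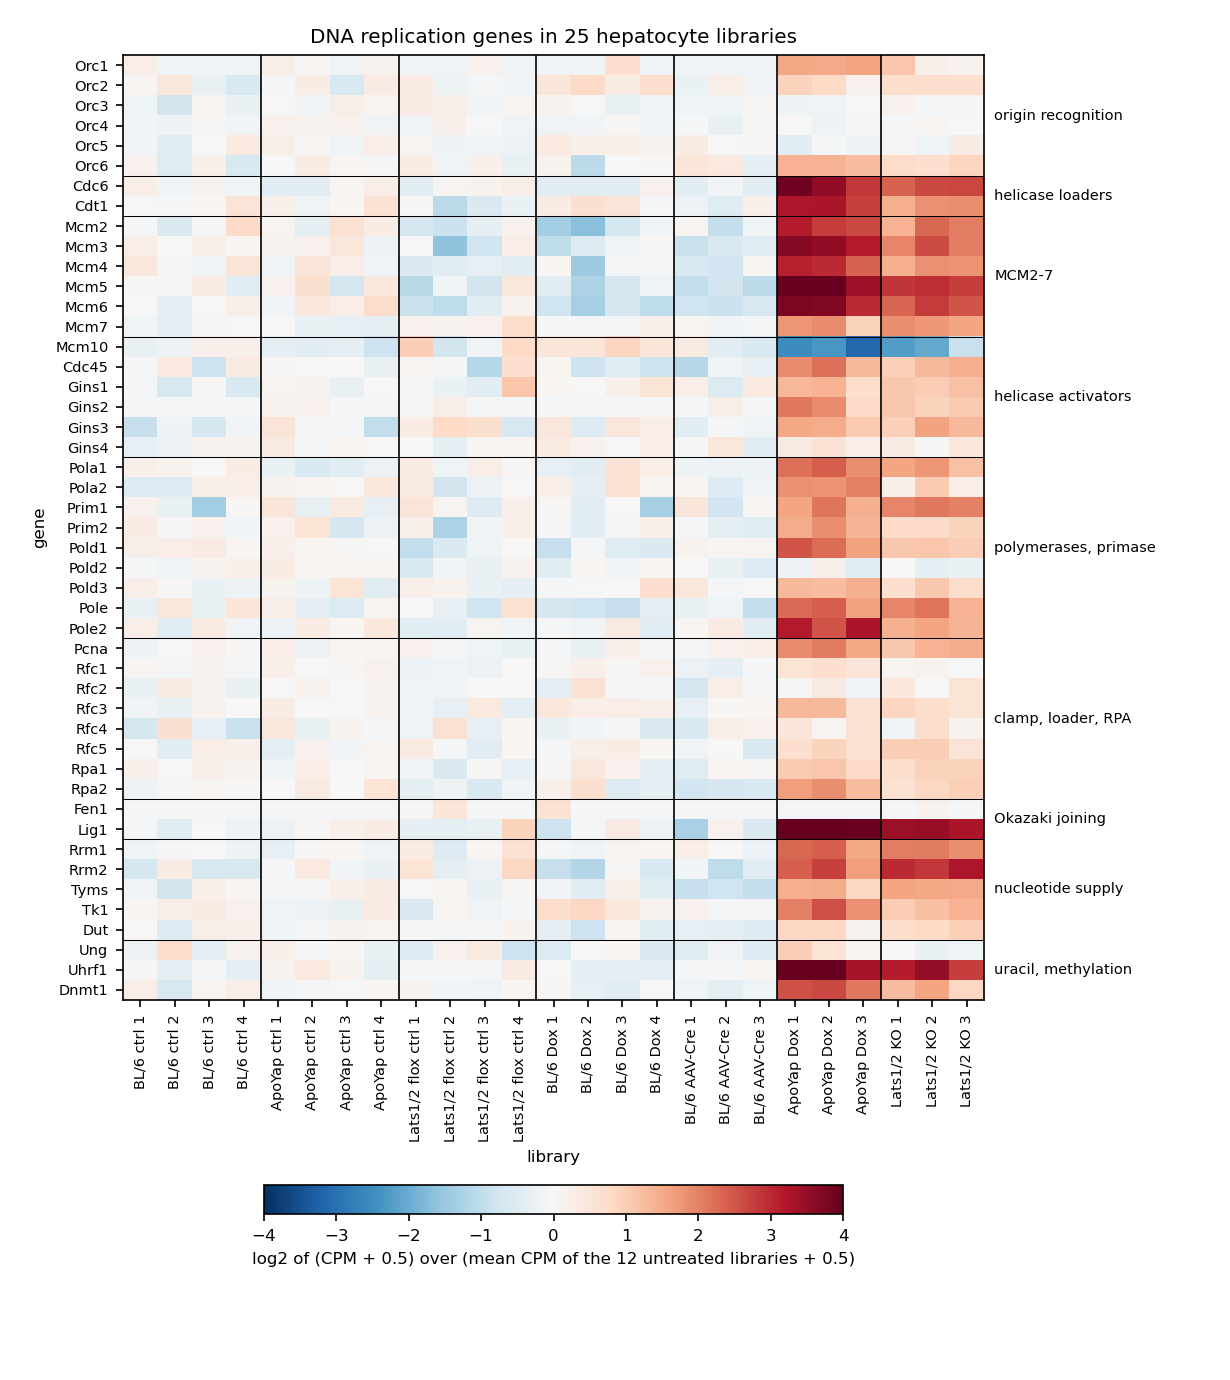
Each row is 1 of the 47 replication genes, grouped by role, and each column 1 of the 25 libraries. Colour gives the log2 ratio of (CPM + 0.5) to (the mean CPM of the 12 untreated libraries + 0.5). ApoYap Dox and Lats1/2 KO are red in most rows, Mcm10 is blue in both, and Orc3, Orc4, Orc5 and Pold2 are pale throughout.

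Within ApoYap Dox the libraries were not alike. Of the 36 genes called higher, 32 had their lowest value of the group in ApoYap Dox 3, at a median of -0.361 on the log2 scale from the group mean. ApoYap Dox 3 also had the lowest sum of cycling genes (501.8) and the highest of macrophage markers (20240). In Lats1/2 KO, 19 of the 34 genes called higher peaked in Lats1/2 KO 2, which had the highest cycling sum (681.8) and the highest macrophage sum (2083). Without ApoYap Dox 3, and without each other library in turn, 35 to 38 genes were called higher under Yap induction, and 28 to 32 in the knockout.

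Of the 6 subunits of the origin recognition complex, Orc1, Orc2 and Orc6 were called higher under Yap induction, and Orc2 and Orc6 in the knockout. These shares are near the backgrounds of 35% and 20.6% of all genes called higher, Orc1 was tested only through its counts in the treated groups, and the Orc2 calls rest on single libraries. Orc3, Orc4 and Orc5, which belong with Orc2 to the core of the complex, had log2 fold changes of -0.18, -0.16 and -0.38 under Yap induction and of -0.13, 0.036 and 0.21 in the knockout, none past the threshold by edgeR. Limma voom called Orc5 lower under Yap induction (adjusted p = 0.00659). Scaling by total counts alone, which moves the median of all genes to 0.986 under Yap induction, makes the 3 positive and called there, so their direction depends on the scaling.

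Orc6 (chr8:85299632-85308278, plus strand), the subunit that helps bring in the helicase, was at 3.04, 3.86, 3.22 and 2.91 CPM in ApoYap ctrl and 8.82, 8.82 and 7.72 in ApoYap Dox. It was at 3.84, 2.73, 3.57 and 2.37 in the flox controls and 5.36, 5.13 and 5.83 in Lats1/2 KO. Treated libraries lay above their controls in each comparison, with log2 fold changes of 1.37 ± 0.28 (SE, adjusted p = 0.000101) and 0.80 ± 0.29 (SE, adjusted p = 0.0289), and the second call was lost without several single libraries. Orc2 (chr1:58462771-58505109, minus strand), a core subunit, was at 2.05, 2.77, 1.25 and 2.81 in ApoYap ctrl, 4.48, 4.12 and 2.51 in ApoYap Dox, 2.85, 1.82, 2.02 and 1.97 in the flox controls and 3.81, 3.76 and 3.71 in Lats1/2 KO. The ApoYap Dox values overlapped their controls and the knockout values did not. Its changes of 0.74 ± 0.30 (SE, adjusted p = 0.0307) and 0.79 ± 0.31 (SE, adjusted p = 0.0436) were each lost when 1 library was left out, for example without ApoYap ctrl 3 (adjusted p = 0.112) or flox control 2 (0.102), and its 3′ end lies within Nif3l1 on the other strand. Orc1, the ATPase subunit that is made and destroyed with the cell cycle, had 4 counts in all of ApoYap ctrl and 79 in ApoYap Dox. In the knockout it had 12 counts against 1, a scaled ratio of 9.717 with an exact 95% counting interval of 1.438 to 415.4. That interval pools reads over libraries and leaves out the spread between them. Lats1/2 KO 1 held 8 of the 12 counts, and Lats1/2 KO 2 and 3 held 2 each. At 0.137 and 0.106 CPM these last libraries overlapped flox control 3 at 0.119.

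The helicase loaders rose far more. Cdt1 (chr8:122568015-122573554, plus strand), which carries the MCM ring to the origin, was at 2.68, 1.93, 2.39 and 3.51 CPM in ApoYap ctrl and 25.1, 25.5 and 17.7 in ApoYap Dox. It was at 2.08, 0.795, 1.31 and 1.77 in the flox controls and 6.83, 9.24 and 9.39 in Lats1/2 KO, and at 1.42 to 3.69 over the C57BL/6 groups. The groups did not overlap in either comparison, and the log2 fold changes were 3.11 ± 0.26 (SE, adjusted p = 1.26e-10) and 2.495 ± 0.28 (SE, adjusted p = 2.9e-07). The 3′ end of Cdt1 lies within the predicted gene Gm20388 on the same strand, so strand cannot tell their reads apart.

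Cdc6 (chr11:98907801-98923940, plus strand), the loader ATPase, was close to absent from untreated liver. It was at 0, 0, 0.208 and 0.301 CPM in ApoYap ctrl, 0, 0.227, 0.238 and 0.296 in the flox controls and 0 to 0.314 in the C57BL/6 groups, at most 4 counts in a library. In ApoYap Dox it reached 9.36, 7.33 and 4.29, and in Lats1/2 KO 2.94, 3.69 and 3.77. The changes of 5.84 ± 0.62 (SE, adjusted p = 8.36e-09) and 4.11 ± 0.61 (SE, adjusted p = 1.3e-05) rest on controls of a few counts, and their size depends on the small prior count of the fit. Only its counts in ApoYap Dox and Lats1/2 KO let Cdc6 pass the filter, so the p-values are no independent evidence of a rise.

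All 6 subunits of the MCM2 to MCM7 ring were higher in each comparison. Their log2 fold changes under Yap induction were 2.92 for Mcm2, 3.43 for Mcm3, 2.90 for Mcm4, 4.04 for Mcm5, 3.35 for Mcm6 and 1.86 for Mcm7. In the knockout they were, in the same order, 2.70, 2.73, 2.43, 3.52, 3.33 and 1.43. Mcm7 had the smallest change of the 6 and the highest starting level, 12.3 to 16.4 CPM in ApoYap ctrl against 31.0 to 61.0 in ApoYap Dox. Its 3′ end lies within Cops6, so reads of these neighbours cannot be told apart without knowing how strand was used.

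Mcm6 (chr1:128331590-128359664, minus strand) was at 2.33, 3.6, 3.22 and 4.61 CPM in ApoYap ctrl and 41.6, 39.2 and 23.9 in ApoYap Dox. It was at 1.21, 1.02, 1.79 and 2.86 in the flox controls and 15.1, 20.7 and 17.03 in Lats1/2 KO. The treated libraries stood clear of every control, at changes of 3.35 ± 0.25 (SE, adjusted p = 2.71e-11) and 3.33 ± 0.28 (SE, adjusted p = 2.99e-09). Among the C57BL/6 groups it was at 2.59, 1.91, 2.59 and 3.15 untreated, 1.27, 0.715, 1.42 and 1.04 after doxycycline and 1.28, 1.18 and 1.49 after the virus. Each of the treated C57BL/6 libraries lay below the lowest untreated one, with changes of -1.19 ± 0.32 (SE, adjusted p = 0.13) and -0.95 ± 0.33 (SE, adjusted p = 0.207) that did not pass the adjusted threshold.

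Mcm5 (chr8:75109569-75128439, plus strand) went from 1.77, 2.6, 0.727 and 2.21 CPM in ApoYap ctrl to 36.2, 34.1 and 21.0 in ApoYap Dox, and from 0.439, 1.36, 0.715 and 2.27 in the flox controls to 14.2, 14.9 and 13.2 in Lats1/2 KO. No treated value came near a control value, and the changes were 4.04 ± 0.34 (SE, adjusted p = 1.42e-10) and 3.52 ± 0.36 (SE, adjusted p = 7.99e-08). Mcm2 (chr6:88883474-88898780, minus strand), a subunit that also holds histones, was at 2.05, 1.34, 3.12 and 2.41 in ApoYap ctrl, 20.2, 15.9 and 14.3 in ApoYap Dox, 0.988, 0.795, 1.31 and 2.17 in the flox controls and 5.62, 11.2 and 9.18 in Lats1/2 KO. Its changes were 2.92 ± 0.38 (SE, adjusted p = 2.43e-07) and 2.70 ± 0.41 (SE, adjusted p = 1.66e-05), again without overlap.

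Mcm10 was the exception. MCM10 is not part of the ring: it joins the active helicase and is needed for origins to fire. Its gene lies at chr2:4989714-5012791, minus strand, overlaps no other protein-coding gene, and has Ucma (4 counts in all libraries) as its nearest neighbour, 3966 bases away. Where within the gene its 3′ reads lie cannot be seen in a table of counts, so the values are of reads counted to Mcm10, and whether they come from the messenger RNA that encodes the protein was not tested. Its count was at 57.9, 55.5, 57.9 and 41.8 CPM in ApoYap ctrl and 12.8, 14.7 and 8.16 in ApoYap Dox. It was at 149, 44.7, 67.7 and 130.0 in the flox controls and 15.5, 17.9 and 40.5 in Lats1/2 KO. In each comparison every treated library lay below every control, although the flox controls themselves ranged widely. The changes were -2.16 ± 0.39 (SE, adjusted p = 6.39e-05) and -1.98 ± 0.39 (SE, adjusted p = 0.000457).

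In C57BL/6 mice Mcm10 was at 60.8, 65.4, 86.5 and 87.1 CPM untreated, 106, 106, 137 and 105 after doxycycline and 97.2, 55.6 and 49.5 after the virus. The doxycycline libraries lay above all the untreated ones, at a change of 0.60 ± 0.33 (SE, adjusted p = 0.487) that did not pass the test, and the virus libraries overlapped them (-0.15 ± 0.36 SE, adjusted p = 0.91). The Mcm10 level therefore stood at 41.8 CPM or more in all 19 libraries outside ApoYap Dox and Lats1/2 KO, and at 40.5 or less in those 6. The call as lower held under every alternative tested for Yap induction and for the knockout.

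Of the other helicase activators, Cdc45, Gins1 and Gins3 were called higher in each comparison, Gins4 in neither by edgeR, and Gins2 was too low to test. Cdc45 (chr16:18780447-18811987, minus strand), which bridges the MCM ring and GINS, was at 0.636, 0.587, 0.623 and 0.401 CPM in ApoYap ctrl and 3.61, 4.57 and 2.27 in ApoYap Dox, and at 0.658, 0.568, 0 and 1.28 in the flox controls and 1.64, 2.19 and 2.55 in Lats1/2 KO. The treated values were above the controls, with changes of 2.602 ± 0.56 (SE, adjusted p = 0.000244) and 1.72 ± 0.59 (SE, adjusted p = 0.0225), and the knockout call was lost without each of 4 single libraries. Cdc45 also passed the filter only through ApoYap Dox and Lats1/2 KO, so these p-values are no independent evidence of a rise. Of the 4 GINS subunits, Gins1 changed by 1.34 and 0.95 and Gins3 by 1.83 and 1.19, and the knockout calls of both depended on single libraries. Gins4 changed by 0.32 ± 0.19 (SE, adjusted p = 0.146) and 0.34 ± 0.20 (SE, adjusted p = 0.184) with edgeR. DESeq2 called it higher under Yap induction (0.43, adjusted p = 0.0447), and scaling by total counts alone called it in both comparisons. Gins2 failed the filter: it had 89 counts in ApoYap Dox against 2 in the controls, a scaled ratio of 28.84 (exact 95% counting interval 7.753 to 241.8), and 25 against 1 in the knockout, a ratio of 20.24 (3.314 to 831.2).

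**Figure D2:**
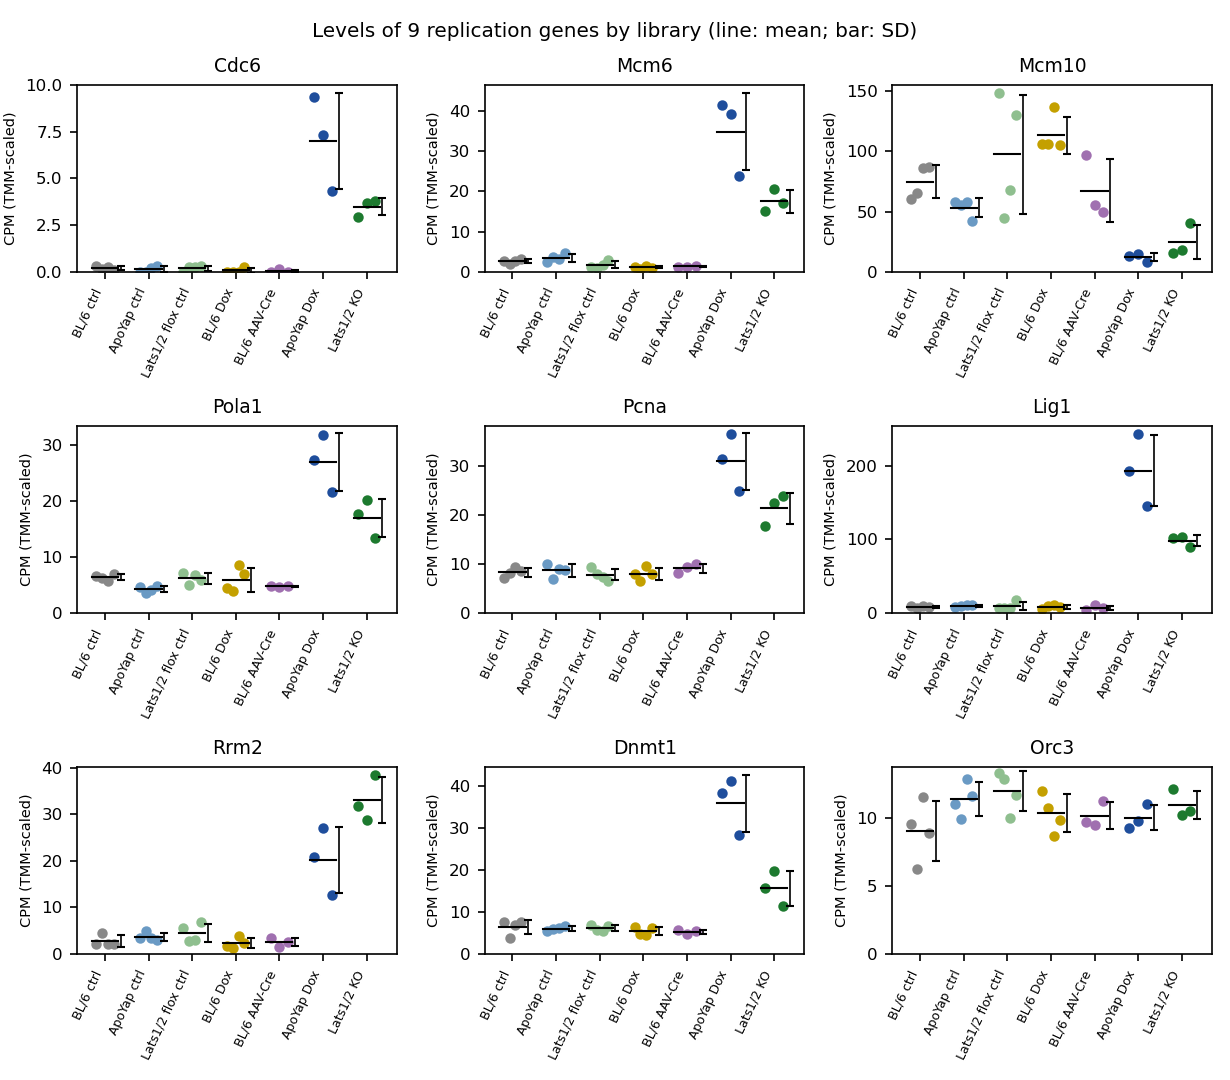
TMM-scaled CPM of 9 replication genes on linear axes from 0, with 1 point per library in 7 groups, the group mean as a line and the SD as a bar. ApoYap Dox and Lats1/2 KO stand above the other 5 groups for Cdc6, Mcm6, Pola1, Pcna, Lig1, Rrm2 and Dnmt1, below them for Mcm10, and among them for Orc3.

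Most polymerase genes were higher too, with 8 of 9 called higher under Yap induction and 7 of 9 in the knockout. Pola1 (chrX:93304767-93632155, minus strand), the catalytic subunit of polymerase alpha, was at 4.59, 3.52, 4.05 and 4.71 CPM in ApoYap ctrl and 27.3, 31.8 and 21.5 in ApoYap Dox. It was at 7.13, 4.88, 6.79 and 5.82 in the flox controls and 17.6, 20.1 and 13.3 in Lats1/2 KO. Both treated groups were clear of their controls, at 2.67 ± 0.21 (SE, adjusted p = 5.56e-11) and 1.46 ± 0.21 (SE, adjusted p = 7.84e-06). Pold1 (chr7:44532746-44548849, minus strand), the catalytic subunit of polymerase delta, was at 2.12, 1.93, 1.87 and 1.8 in ApoYap ctrl, 12.6, 10.4 and 6.47 in ApoYap Dox, 0.658, 1.02, 1.55 and 1.77 in the flox controls and 4.33, 4.45 and 4.03 in Lats1/2 KO. It rose by 2.34 ± 0.26 (SE, adjusted p = 2.23e-08) and 1.75 ± 0.29 (SE, adjusted p = 3.98e-05) without overlap.

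Not all subunits of a polymerase were called. Within polymerase delta, Pold3 was called higher (1.33 and 0.95) while the small subunit Pold2 had changes of -0.31 ± 0.20 (SE, adjusted p = 0.165) and -0.029 ± 0.20 (SE, adjusted p = 0.929), by edgeR. Under Yap induction limma voom called Pold2 lower (adjusted p = 0.0382), and scaling by total counts alone made it positive and called. Within polymerase epsilon, the catalytic Pole changed by 2.73 and 2.33, and its partner Pole2, which had 3 counts in all the flox controls, by 4.29 under Yap induction. Pole2 could be tested only through its counts in ApoYap Dox and Lats1/2 KO. The primase subunits Prim1 and Prim2 changed by 1.87 and 1.80 under Yap induction and by 2.13 and 1.15 in the knockout. Pola2, the regulatory subunit of polymerase alpha, was called by edgeR under Yap induction (1.87 ± 0.30 SE, adjusted p = 5.05e-06) and missed the threshold in the knockout (0.77 ± 0.32 SE, adjusted p = 0.0585).

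The clamp gene rose, as did 3 of 5 genes of its loader. Pcna (chr2:132249162-132253314, minus strand), the ring that tethers polymerases to DNA, was at 9.89, 6.88, 8.93 and 8.72 CPM in ApoYap ctrl and 31.4, 36.4 and 24.9 in ApoYap Dox. It was at 9.22, 7.95, 7.26 and 6.51 in the flox controls and 17.7, 22.3 and 23.8 in Lats1/2 KO, and at 6.55 to 9.86 over all C57BL/6 libraries. The treated libraries did not overlap any control, at changes of 1.84 ± 0.16 (SE, adjusted p = 3.57e-10) and 1.46 ± 0.17 (SE, adjusted p = 3.51e-07). Of the 5 clamp loader subunits, Rfc1, Rfc3 and Rfc5 were called higher in each comparison, with changes of 0.49, 1.06 and 0.80 under Yap induction and 0.24, 0.84 and 0.87 in the knockout. Rfc1 in the knockout (adjusted p = 0.0496) lost its call without most single libraries. Rfc2 (0.042 and 0.43) and Rfc4 (0.56 and 0.37) were not called by edgeR, and with only the compared groups in the fit Rfc2 was called higher in the knockout (adjusted p = 0.0395).

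Rpa2 (chr4:132768332-132778752, plus strand), a subunit of the complex that coats single-stranded DNA, was at 6.92, 9.05, 6.96 and 10.3 CPM in ApoYap ctrl, 23.1, 26.4 and 17.1 in ApoYap Dox, 5.27, 6.02, 4.41 and 6.41 in the flox controls and 10.9, 12.7 and 13.7 in Lats1/2 KO. The groups did not overlap, and it rose by 1.42 ± 0.21 (SE, adjusted p = 2.41e-06) and 1.17 ± 0.23 (SE, adjusted p = 0.000235). The large subunit Rpa1 rose by 0.95 ± 0.17 (SE, adjusted p = 2.58e-05) and 1.10 ± 0.18 (SE, adjusted p = 2.85e-05).

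Lig1 had one of the widest ranges of all. Lig1 (chr7:13277283-13311433, plus strand), the ligase that seals Okazaki fragments, was at 7.42, 9.05, 10.2 and 11.03 CPM in ApoYap ctrl and 193, 243 and 145 in ApoYap Dox. It was at 6.8, 6.59, 7.03 and 16.8 in the flox controls, where library 4 stood apart, and 101.4, 103 and 89.2 in Lats1/2 KO. Over the C57BL/6 libraries it was at 3.31 to 11.1. Every treated library was several times above the highest control, at changes of 4.37 ± 0.32 (SE, adjusted p = 1.29e-10) and 3.38 ± 0.31 (SE, adjusted p = 8.14e-08). Fen1, the flap nuclease that prepares those ends, had no count in 22 of 25 libraries and at most 2 in a library, so no change in it was detectable at this depth.

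All 5 nucleotide supply genes were higher in each comparison. Rrm2 (chr12:24708241-24714146, plus strand), the small subunit of ribonucleotide reductase, was at 3.46, 4.86, 3.32 and 2.91 CPM in ApoYap ctrl and 20.9, 27.0 and 12.7 in ApoYap Dox. It was at 5.49, 2.73, 2.98 and 6.8 in the flox controls and 31.7, 28.7 and 38.4 in Lats1/2 KO. Here the knockout libraries were the highest of all 25, at changes of 2.46 ± 0.33 (SE, adjusted p = 4.83e-07) and 2.86 ± 0.33 (SE, adjusted p = 5.99e-07). The large subunit Rrm1 (chr7:102441695-102469771, plus strand) was at 5.3, 6.96, 7.27 and 6.12 in ApoYap ctrl, 35.7, 37.8 and 20.9 in ApoYap Dox, 8.56, 4.66, 7.15 and 10.6 in the flox controls and 29.8, 30.4 and 25.8 in Lats1/2 KO. Its treated groups overlapped each other but not their controls, at 2.30 ± 0.21 (SE, adjusted p = 5.06e-10) and 1.88 ± 0.21 (SE, adjusted p = 2.12e-07).

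Tk1 (chr11:117815526-117826092, minus strand), the thymidine salvage kinase, was already present in untreated liver. It was at 22.5, 21.1, 20.1 and 31.3 CPM in ApoYap ctrl, 102, 150.1 and 89.0 in ApoYap Dox, 16.2, 26.6, 22.6 and 23.4 in the flox controls and 50.9, 58.1 and 65.9 in Lats1/2 KO. ApoYap Dox was above Lats1/2 KO, and each was above its controls, at 2.26 ± 0.18 (SE, adjusted p = 1.04e-10) and 1.39 ± 0.18 (SE, adjusted p = 2.96e-06). Its 3′ end lies within the predicted gene Gm20708. Thymidylate synthase, Tyms, changed by 1.24 ± 0.21 (SE, adjusted p = 1.33e-05) and 1.70 ± 0.22 (SE, adjusted p = 1.87e-06), and Dut, which removes dUTP, by 0.64 ± 0.19 (SE, adjusted p = 0.00481) and 0.87 ± 0.20 (SE, adjusted p = 0.00107).

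The genes of maintenance methylation rose, and the uracil glycosylase did not pass the test. Uhrf1 (chr17:56303321-56323486, plus strand), which brings DNMT1 to newly copied DNA, was at 0.212, 0.335, 0.208 and 0 CPM in ApoYap ctrl and 10.2, 13.1 and 5.84 in ApoYap Dox, and at 0.11, 0.114, 0.119 and 0.296 in the flox controls and 5.1, 6.77 and 3.87 in Lats1/2 KO. The controls held at most 4 counts a library, and the changes were 5.56 ± 0.47 (SE, adjusted p = 2.12e-10) and 4.91 ± 0.52 (SE, adjusted p = 1.26e-07). Uhrf1 could be tested only through its counts in ApoYap Dox and Lats1/2 KO, so these p-values are no independent evidence of a rise. Dnmt1 (chr9:20907209-20959888, minus strand), the methyltransferase itself, was at 5.37, 5.79, 6.23 and 6.52 in ApoYap ctrl, 38.3, 41.0 and 28.1 in ApoYap Dox, 6.91, 5.68, 5.48 and 6.61 in the flox controls and 15.7, 19.6 and 11.4 in Lats1/2 KO. It rose by 2.59 ± 0.20 (SE, adjusted p = 4.16e-11) and 1.33 ± 0.20 (SE, adjusted p = 1.88e-05), with no overlap between either treated group and its controls. Ung, the glycosylase, changed by 0.62 ± 0.27 (SE, adjusted p = 0.05) and -0.007 ± 0.29 (SE, adjusted p = 0.987); under Yap induction it was called by DESeq2 (adjusted p = 0.0214) and by limma voom (0.00167).

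**Figure D3:**
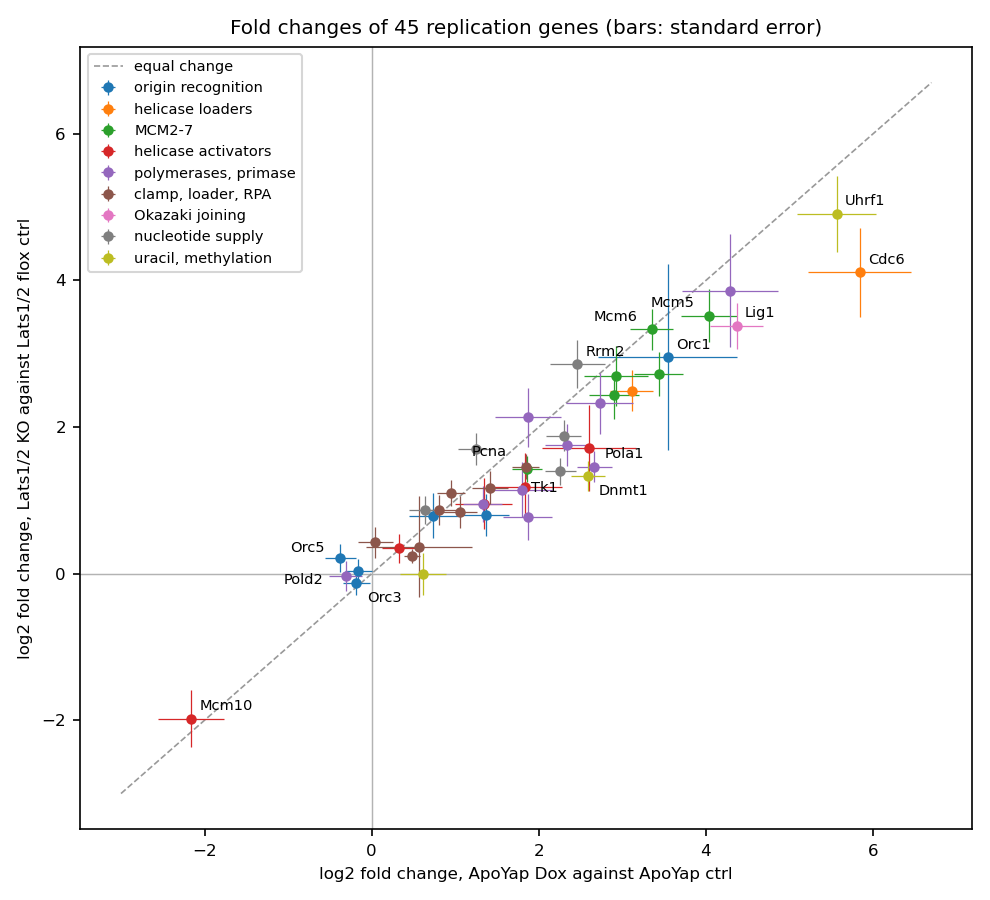
Log2 fold change under Yap induction (x axis) against that in the Lats1/2 knockout (y axis) for the 45 replication genes tested, coloured by role, with standard errors as bars and a dashed line of equal change. Most genes lie above 0 on both axes and below the dashed line, and Mcm10 lies alone at -2.16 and -1.98.

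No replication gene passed the test after either control treatment. After doxycycline alone 0 of 45 were called in either direction, against 0.0231% of all genes called higher and 0.100% called lower. At an unadjusted p under 0.05 there were 7, and DESeq2 and limma voom also called 0. Those 7 included Mcm6 (-1.19), Mcm2 (-1.29), Pold1 (-0.92) and Pole (-1.40) with lower values and Orc2 (0.73), Gins3 (1.13) and Tk1 (0.37) with higher ones. After the virus alone edgeR called 0 of 45, against 0.254% of all genes called higher and 0.0463% lower, as did DESeq2 and limma voom. A fit of only the compared groups called 1, Mcm3, as lower. At an unadjusted p under 0.05 there were 6, all with lower values: Mcm3 (-0.92), Mcm5 (-1.40), Mcm6 (-0.95), Rfc1 (-0.25), Rpa2 (-0.75) and Tyms (-0.93). How many of all genes reached that unadjusted p is not given here for either treatment, so the 7 and the 6 have no background beside them.

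None passed it between the untreated strains. Between ApoYap ctrl and BL/6 ctrl edgeR, DESeq2 and limma voom called 0 of 45 (edgeR background 0.146% higher and 0.293% lower), with 1 gene, Pola1, at an unadjusted p under 0.05. Between the flox controls and BL/6 ctrl the same tools called 0 (background 3.15% higher and 0.971% lower), with 8 genes at an unadjusted p under 0.05. How many of all genes reached that unadjusted p is not given here for either strain. The 6 genes of the MCM ring had a median of -0.55 in the flox controls against BL/6 ctrl, with 0 called, and the 45 genes one of -0.045.

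The treated C57BL/6 groups allow the side effects to be subtracted. Yap induction less the effect of doxycycline alone called 31 of 45 higher (background 26.7%) and 2 lower (background 27.4%), with a median of 1.71. The genes called lower were Mcm10 (-2.76 ± 0.51 SE, adjusted p = 0.000124) and Orc5 (-0.65 ± 0.25 SE, adjusted p = 0.0341), the latter only under some settings. The knockout less the effect of the virus called 28 higher (background 13.0%) and Mcm10 lower (-1.83 ± 0.52 SE, adjusted p = 0.0143, background 11.4%), with a median of 1.57. This last contrast also holds the difference between 24 hours and 1 week after the virus. The call of Mcm10 in it was lost without Lats1/2 KO 2 and without BL/6 AAV-Cre 1. Among the genes called higher in each net contrast were Cdc6, Cdc45, Pole2 and Uhrf1, which could be tested only through ApoYap Dox and Lats1/2 KO.

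The knockout changes were mostly smaller, and the difference itself passed the test for 3 genes. The knockout change less the Yap induction change was negative for 31 of the 45 and positive for 14, with a median of -0.39 beside -0.008 over all genes. The signs over all genes are not given here. No gene was called higher in the knockout by edgeR (background 17.4%) or DESeq2, and limma voom called 1, Orc5. Pola1, Tk1 and Dnmt1 were called lower (background 12.4%), a smaller share of the 45 than of all genes. In the same contrast 11 of 12 macrophage markers were called lower and 10 of 12 hepatocyte markers higher. The part of that shift in the differences was not tested. For Pola1 the difference was -1.21 ± 0.30 (SE, adjusted p = 0.00323), with an interval of 2 SE from -1.8 to -0.611. For Dnmt1 it was -1.26 ± 0.29 (SE, adjusted p = 0.00164), from -1.83 to -0.684. For Tk1 it was -0.86 ± 0.26 (SE, adjusted p = 0.014), from -1.39 to -0.342, and without ApoYap Dox 2 it was -0.61 with an adjusted p of 0.0714. The SE of the other 42 differences ran from 0.136 to 3.87, with a median of 0.41. Among those with narrow intervals, Rfc1 differed by -0.24 (-0.515 to 0.0303), Pcna by -0.38 (-0.847 to 0.0863) and Rpa1 by 0.15 (-0.341 to 0.643). The intervals were wider for others: Mcm6 differed by -0.02 (-0.949 to 0.908), Rrm2 by 0.40 (-0.535 to 1.33) and Lig1 by -0.99 (-1.85 to -0.125, adjusted p = 0.0908). Scaling by total counts alone called 13 genes lower, since it moves the median of all genes to 0.986 under Yap induction and 0.442 in the knockout.

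Summed over the 47 genes, the level was 312.8 ± 9.913 CPM of the library total in ApoYap ctrl (SD, n = 4) and 1804 ± 290.5 in ApoYap Dox (n = 3), a ratio of 5.769. The sums were 308.4 ± 56.25 in the flox controls (n = 4) and 835.3 ± 87.24 in Lats1/2 KO (n = 3), a ratio of 2.709. All treated libraries were above all controls, and the two-sided exact permutation p was 0.05714 for each, the smallest that 4 against 3 libraries allow (0.07619 after Benjamini-Hochberg adjustment over 4 comparisons). Doxycycline alone gave 347.9 ± 22.21 (n = 4) against 308.7 ± 28.83 in BL/6 ctrl (n = 4), with an exact permutation p of 0.05714, where 0.02857 was the smallest possible. The virus alone gave 276.1 ± 19.82 (n = 3), with an exact permutation p of 0.2286. After TMM scaling the log2 ratio of the sums was 1.62 under Yap induction, against 2.53 of library totals, and 0.97 in the knockout, against 1.44.

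Much of the small doxycycline difference was Mcm10. Without it the sums were 248.2 ± 7.618 in BL/6 Dox and 242.1 ± 16.71 in BL/6 ctrl (SD, n = 4 each). Counts come from 3′ ends and are not divided by length, so the shares that follow are of counts and not of molecules. Mcm10 held 21.43% of the summed counts in BL/6 ctrl, 15.89% in ApoYap ctrl and 26.02% in the flox controls, the largest share of the 47 genes in each. It held 1.138% in ApoYap Dox and 3.505% in Lats1/2 KO. There Lig1 had the largest share, 18.67% and 13.97%, from 2.813% and 2.529% in the controls.

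**Figure D4:**
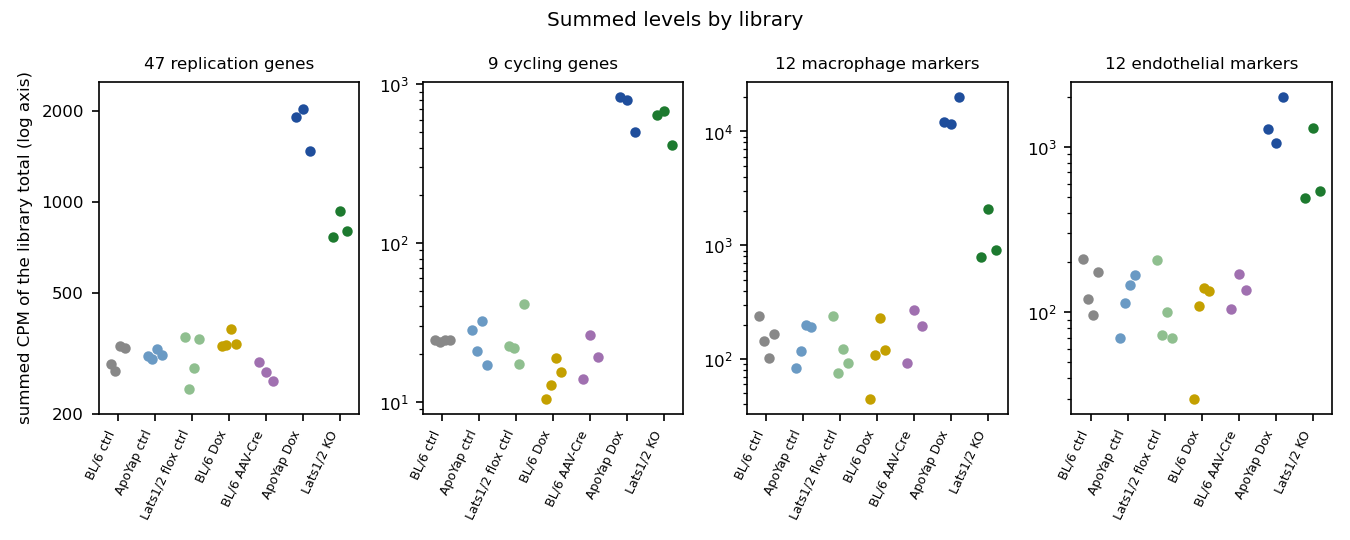
Summed CPM of the library total on log axes, with 1 point per library, for the 47 replication genes, 9 cycling genes, 12 macrophage markers and 12 endothelial markers. The replication sum lies between 241.5 and 381.0 in the 5 groups other than ApoYap Dox (1476 to 2027) and Lats1/2 KO (768.1 to 933.9), and the other 3 sums are high in the same groups.

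The level in resting liver and the fold change were set side by side for 39 genes, leaving out the 6 that could be tested only through their counts in the treated groups. Across these 39 the Spearman correlation between the mean level in BL/6 ctrl, a group in neither comparison, and the log2 fold change was -0.498 for Yap induction and -0.472 for the knockout, a description over genes that share libraries. The 17 genes from 1 to 5 CPM had a median change of 1.87 under Yap induction and the 21 above 5 CPM one of 0.80. The medians in the knockout were 1.75 and 0.87. Only Gins3 of the 39 was under 1 CPM.

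The other genes of replication were described from a list of 52, of which 48 were tested. Under Yap induction 32 were higher and 6 lower, with a median of 1.07, against 35% and 32.0% of all genes tested. In the knockout 30 were higher and 3 lower, with a median of 0.65, against 20.6% and 17.4%. Of 8 tested regulators of origin firing, 8 were higher under Yap induction and 7 in the knockout, among them Dbf4, the activator of the kinase CDC7 (2.77 ± 0.26 SE, adjusted p = 8.94e-10 and 2.66 ± 0.25 SE, adjusted p = 2.45e-08). Of 8 tested genes of fork protection 6 were higher in each, with the checkpoint mediator Clspn at 5.61 ± 0.45 (SE, adjusted p = 8.28e-11) and 4.22 ± 0.47 (SE, adjusted p = 2.76e-07). Histone chaperones were higher in 6 of 7 and 5 of 7, with Asf1b at 4.76 ± 0.48 (SE, adjusted p = 3.56e-09) and 3.38 ± 0.50 (SE, adjusted p = 1.31e-05).

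Other nucleotide genes moved both ways. Samhd1, which degrades deoxynucleotides, rose by 3.03 ± 0.24 (SE, adjusted p = 9.01e-11) and 0.97 ± 0.24 (SE, adjusted p = 0.00265), and Ctps, which makes CTP, by 2.95 ± 0.30 (SE, adjusted p = 3.32e-09) and 1.57 ± 0.30 (SE, adjusted p = 0.000227). The folate enzymes Shmt2, Shmt1 and Mthfd1, which provide one-carbon units and are also abundant in resting hepatocytes, were lower under Yap induction, at -2.15 ± 0.14 (SE, adjusted p = 1.96e-12), -1.70 ± 0.17 (SE, adjusted p = 2.09e-09) and -1.42 ± 0.14 (SE, adjusted p = 2.2e-09). In the knockout Shmt2 (-0.78 ± 0.13 SE, adjusted p = 5.5e-05) and Shmt1 (-0.74 ± 0.16 SE, adjusted p = 0.000781) were lower and Mthfd1 (-0.32 ± 0.13 SE, adjusted p = 0.0637) was not called. The polymerase epsilon subunit Pole4 was lower in each (-0.65 and -0.59). The nuclease Dna2 (-0.81) and the RNase H2 subunit Rnaseh2c (-0.63) were lower under Yap induction and not called in the knockout (-0.36 and -0.069). Over the same comparisons all 12 hepatocyte markers were lower under Yap induction and 10 of 12 in the knockout, with Alb at -0.92 ± 0.16 (SE, adjusted p = 2.3e-05) and -0.51 ± 0.16 (SE, adjusted p = 0.0148), and the part of that shift in the folate values was not tested. All these changes are after TMM scaling. Total counts alone move the median of all genes to 0.986 under Yap induction and 0.442 in the knockout. Values of these genes under that scaling are not given here. The direction of the smaller decreases, among them Pole4, Dna2, Rnaseh2c and Alb, may therefore depend on the scaling.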

How the data were processed

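Hepatocyte-labelled cells were sorted from perfused, digested liver, and libraries were made from polyadenylated RNA with the QuantSeq FWD kit, which reads 3′ ends, per the labels' protocols. Reads went through FastQC, cutadapt and STAR 2.6.1d on mm10 (GRCm38), per the submitters' processing notes. How reads were counted, on which annotation and with which strand setting is not given in the sources used here. Genes with overlapping ends are therefore uncertain (10 of the 47 have a 3′ end inside another protein-coding gene of GENCODE M21). The authors deposited whole-number counts per gene symbol for 25 libraries, with no normalization. No molecular identifiers are named, so intervals cover counting error only.

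Counts were tested with edgeR 4.0.16 in R 4.3.3: TMM scaling, filterByExpr (12970 genes), a robust quasi-likelihood fit of 7 group means to all libraries, and Benjamini-Hochberg adjustment over all genes of a contrast at 0.05. Standard errors were taken as the fold change on the log2 scale over the root of F. No pair of replicates looked like 1 library deposited again (lowest chi-square per degree of freedom 7.692). Alternatives were RLE scaling, total counts alone, TMM without the 50 most abundant genes, no filter, at least 10 CPM in 3 libraries, DESeq2 1.42.0, voom with quality weights (limma 3.58.1), only the compared groups, an adjusted p under 0.01, the replicate number as a block, and leaving out libraries. The tests were tried on simulated data. Described in full were the 2 genes of each role with the smallest p under Yap induction and an average log2 CPM of at least 0, any gene called lower or in opposite directions, and Pcna, Mcm2 and Rrm2. Of the 52 other genes, the 8 with the smallest p and those called lower could be named. The genes, lists and tests were chosen with earlier results of these data known.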

Additional observations from a re-analysis of the deposited data

Results flagged for a closer look

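Of 72 groups of 4 libraries examined, for the genes described in full and for the summed level, 7 held a library far from the others, where chance alone gives about 1 in 20. Orc6 was at 1.191 CPM in BL/6 Dox 2, below the other 3. Cdt1 was at 3.38 in BL/6 ctrl 4 and Rrm2 at 4.536 in BL/6 ctrl 2, above the others. Mcm10 was at 41.81 in ApoYap ctrl 4, below the others, and at 136.6 in BL/6 Dox 3, above them. Lig1 was at 16.76 in Lats1/2 flox ctrl 4. The summed level of the 47 genes reached 381.0 CPM in BL/6 Dox 3, the library with the high Mcm10. In none of these was the cause tested.

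The effect of doxycycline differed between ApoYap and C57BL/6 mice for 33 genes by the test of the difference itself (edgeR, adjusted p under 0.05). This is the contrast given above as Yap induction less the effect of doxycycline alone. Of all genes tested it called 26.7% higher and 27.4% lower. The differences in log2 fold change were Orc5 -0.6498, Orc6 1.405, Cdc6 7.466, Cdt1 2.852, Mcm2 4.213, Mcm3 3.993, Mcm4 3.495, Mcm5 4.883, Mcm6 4.543, Mcm7 1.708, Mcm10 -2.763, Cdc45 3.647, Pola1 2.754, Pola2 1.517, Prim1 1.975, Prim2 2.037, Pold1 3.259, Pold3 1.102, Pole 4.122, Pole2 4.513, Pcna 1.889, Rfc1 0.3869, Rpa1 0.9825, Rpa2 1.352, Lig1 4.317, Rrm1 2.174, Rrm2 2.677, Tyms 1.304, Tk1 1.891, Dut 0.9983, Ung 0.9897, Uhrf1 6.688, Dnmt1 2.836. The values of Cdc6 and Uhrf1 rest on 1 or 2 counts over all BL/6 Dox libraries and depend on the prior count of the fit. Of the genes listed, Cdc6, Cdc45, Pole2 and Uhrf1 could be tested only through their counts in ApoYap Dox and Lats1/2 KO.

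The effect of AAV-Cre differed between Lats1/2 flox and C57BL/6 mice for 29 genes by the same test, with differences of Cdc6 6.349, Cdt1 2.822, Mcm2 3.176, Mcm3 3.646, Mcm4 3.139, Mcm5 4.925, Mcm6 4.28, Mcm7 1.312, Mcm10 -1.826, Cdc45 2.849, Pola1 1.886, Prim1 1.786, Prim2 1.689, Pold1 1.911, Pole 3.201, Pole2 4.055, Pcna 1.321, Rfc1 0.4895, Rfc5 1.145, Rpa1 1.349, Rpa2 1.916, Lig1 3.697, Rrm1 1.739, Rrm2 2.974, Tyms 2.625, Tk1 1.57, Dut 1.287, Uhrf1 4.136, Dnmt1 1.625. This is the contrast given above as the knockout less the effect of the virus. Of all genes tested it called 13.0% higher and 11.4% lower. The C57BL/6 libraries were taken 24 hours after the virus and the knockout libraries after 1 week, so strain, genotype and time cannot be told apart here. Cdc6 and Uhrf1 had 1 and 4 counts in BL/6 AAV-Cre. Here too Cdc6, Cdc45, Pole2 and Uhrf1 could be tested only through ApoYap Dox and Lats1/2 KO.

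The knockout change differed from the Yap induction change for Pola1 by -1.206, for Tk1 by -0.864 and for Dnmt1 by -1.259. Of all genes tested this contrast called 17.4% higher and 12.4% lower.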

How the results depend on the processing

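The main counts of genes called higher stayed within 1.5 times under every alternative run (28 to 44 under Yap induction, 26 to 40 in the knockout). These counts do not share a background. The lowest came with 10 CPM in 3 libraries, where only 34 replication genes were tested. The highest came with total counts alone, which called 8613 and 5781 of all genes higher, against 4536 and 2668 in the main fit. Scaling by total counts alone turned the sign of Orc3 (0.7342), Orc4 (0.7606), Orc5 (0.5416) and Pold2 (0.5975) under Yap induction, and net of doxycycline of Orc3 (0.5708), Orc4 (0.7655), Orc5 (0.288), Pold2 (0.7431) and Rfc2 (0.8891), since it shifts the median of all genes by 0.986. It also raised the genes lower in the knockout than under Yap induction from 3 to 13. Genes called lower net of doxycycline fell from 2 to 1 (Mcm10) with RLE, total counts alone, no filter, 10 CPM in 3 libraries, DESeq2, the replicate block, an adjusted p under 0.01 and without BL/6 Dox 1 and 2. Net of AAV-Cre they fell from 1 to 0 with only the compared groups or an adjusted p under 0.01. Voom called 3 genes lower under Yap induction (Mcm10, Orc5, Pold2) and 1 higher for knockout minus induction, and a fit of the compared groups alone called 1 lower after the virus (Mcm3). Without 1 library, genes called lower ranged from 1 to 2 under Yap induction, 1 to 2 net of doxycycline, 0 to 1 net of AAV-Cre and 2 to 5 for knockout minus induction. Of 37 calls under Yap induction 36 held under every alternative that tested the gene, all but Orc2. Of 35 in the knockout 28 did, all but Cdc45, Gins1, Gins3, Orc2, Orc6, Prim2 and Rfc1. Causes beyond the scaling were not tested.

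Replicate numbers did not pair the libraries (correlations of deviations 0.0465 to 0.152 under Yap induction, -0.224 to 0.0534 in the knockout). With the replicate block 36 genes were higher and 1 lower under Yap induction, 33 and 1 in the knockout. Depth limits the lowest genes: 1 count was up to 0.141 CPM, and Fen1 and Gins2 could not be tested.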
